A study of Rattus norvegicus with 17 samples.

Results

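Genes of DNA replication and of mitosis were followed in the colon mucosa of rats on 2 diets that differed in calcium. The list held 48 genes, 22 of DNA replication and of the entry into it and 26 of mitosis, and a gene was matched to every non-control probe of the array that carried its name, ignoring case and the suffixes for predicted or mapped genes. By that rule 44 genes had a probe, and all 44 were tested (21 replication and 23 mitosis genes), while Cdt1, Cdca3, Aurka and Cenpa had none. The 44 genes were covered by 65 of the 41012 probes on the array, and 62 of these were among the 27083 probes tested.

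The animals were 17 females of the inbred Fisher 344 strain, 8 to 10 weeks old at the start, and all of them carried the HLA-B27 and β2-microglobulin transgenes, human genes that make such rats prone to colitis. A purified diet with 120 mmol calcium per kg was fed to 8 rats and the same kind of diet with 30 mmol per kg to 9 rats, the added calcium taking the place of glucose, and no rat without the transgenes was analysed here. RNA from scraped mucosa of each rat was labelled with Cy5 and hybridised to its own 2-colour array beside a Cy3 pool made from all animals. Each value is therefore the normalised log2 ratio of 1 rat to that pool. All rats were in Cy5 and the pool in Cy3, so dye and sample were not separated for a probe. A value of 0 need not be the level of the pool: Kif23 lay above 0 in every rat (0.036 to 0.42). A diet difference is the mean of the high calcium rats minus the mean of the low calcium rats. The Cy5 channel was well above background for 60.0% to 71.9% of spots on an array, and all 12 markers of colon epithelium on the list were tested.

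Cells copy their DNA in S phase and separate the copies in mitosis. The MCM helicase is loaded on origins, polymerases and the sliding clamp extend the strands, and cyclin-dependent kinases, the spindle and the anaphase-promoting complex then carry the cell through division. In the colon, dividing cells lie in the lower part of the crypts and differentiated colonocytes near the surface. E2F factors are known regulators of replication genes, and the CHR element and nearby CCAAT boxes are known elements of mitosis gene promoters.

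Mcm2, Pcna, Mki67 and Top2a are common proliferation markers, and of the members Mcm7 and Cdk1 lay closest to the replication and the mitosis mean. The promoters of these 6 members are shown. Each is the 250 bases before the annotated start, 5′ to 3′ on the gene's strand, from RefSeq on GRCr8. Mcm2 lies at chr4:122918095-122918344 (minus strand), Pcna at chr3:139955821-139956070 (minus strand) and Mcm7 at chr12:22163179-22163428 (minus strand). Mki67 lies at chr1:199952594-199952843 (minus strand), Top2a at chr10:84473094-84473343 (minus strand) and Cdk1 at chr20:19265043-19265292 (plus strand). Capitals mark, on either strand, the E2F letters TTTCCCGC, TTTGGCGC, TTTCGCGC or TTTGCCGC, the CHR letters TTTGAA or TTCGAA, and the CCAAT letters; matches may overlap.
Mcm2: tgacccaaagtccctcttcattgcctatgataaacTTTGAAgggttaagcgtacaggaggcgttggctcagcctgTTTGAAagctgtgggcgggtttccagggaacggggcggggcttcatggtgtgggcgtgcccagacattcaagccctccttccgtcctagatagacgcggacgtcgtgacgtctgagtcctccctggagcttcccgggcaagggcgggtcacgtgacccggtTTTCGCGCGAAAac
Pcna: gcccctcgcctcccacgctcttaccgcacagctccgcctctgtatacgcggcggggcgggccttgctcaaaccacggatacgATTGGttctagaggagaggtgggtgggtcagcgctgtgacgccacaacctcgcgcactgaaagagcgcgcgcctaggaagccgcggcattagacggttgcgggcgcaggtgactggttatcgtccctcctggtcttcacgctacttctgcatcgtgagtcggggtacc
Mcm7: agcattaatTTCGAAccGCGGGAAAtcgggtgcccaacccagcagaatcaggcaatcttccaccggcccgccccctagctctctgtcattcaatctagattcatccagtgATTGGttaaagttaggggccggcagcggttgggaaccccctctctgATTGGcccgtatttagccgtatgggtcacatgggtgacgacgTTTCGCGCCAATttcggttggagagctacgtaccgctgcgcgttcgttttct
Mki67: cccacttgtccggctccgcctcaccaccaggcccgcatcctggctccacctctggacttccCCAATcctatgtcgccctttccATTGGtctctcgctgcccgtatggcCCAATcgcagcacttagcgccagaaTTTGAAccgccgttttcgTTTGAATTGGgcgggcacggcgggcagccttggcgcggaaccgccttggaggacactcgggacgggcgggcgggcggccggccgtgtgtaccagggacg
Top2a: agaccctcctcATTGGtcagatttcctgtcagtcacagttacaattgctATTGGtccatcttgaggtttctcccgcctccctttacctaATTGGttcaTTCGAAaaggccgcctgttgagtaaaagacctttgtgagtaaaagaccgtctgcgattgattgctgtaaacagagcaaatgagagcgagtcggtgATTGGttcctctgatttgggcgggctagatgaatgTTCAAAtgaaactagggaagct
Cdk1: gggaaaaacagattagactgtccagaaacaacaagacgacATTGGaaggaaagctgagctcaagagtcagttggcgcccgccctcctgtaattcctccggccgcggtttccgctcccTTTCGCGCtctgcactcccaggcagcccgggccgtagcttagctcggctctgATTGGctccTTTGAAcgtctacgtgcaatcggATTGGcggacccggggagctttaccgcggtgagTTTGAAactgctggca

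Promoters were found for 34 of the 44 members. E2F letters stood in 7 of 16 replication promoters and in 1 of 18 mitosis promoters (Cdk1), against 1.73% of all 33469 promoters of this length. CHR letters stood in 3 of 16 replication and 10 of 18 mitosis promoters (17.4% of all), and CCAAT in 9 and 15 of them (34.0% of all). CHR and CCAAT letters stood together in 2 of 16 replication and 9 of 18 mitosis promoters, against 6.31% of all promoters. Of the promoters shown, those of Mcm2, Mcm7 and Cdk1 held both E2F and CHR letters. Those of Mki67 and Top2a held CHR and no E2F letters, and that of Pcna held neither. A match is a string of letters and no measured binding.

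Neither replication nor mitosis genes differed between the diets beyond the spread between rats. Under limma with Benjamini-Hochberg adjustment over all probes, 0 of the 44 members passed an adjusted p of 0.05, and over all probes 0 of 27083 did (0%; the smallest adjusted p was 0.0813). At an unadjusted p under 0.05 there were again 0 members, each taken by its brightest probe. Of all tested probes 9.6% passed (4.45% higher and 5.16% lower with high calcium). The adjusted p of the members ran from 0.549 to 0.995. The direction of the point estimates was uneven between the classes: 17 of 21 replication genes had a negative difference and 14 of 23 mitosis genes a positive one, where 45.8% of all tested probes were negative. The median difference was -0.055 over replication genes, 0.019 over mitosis genes and 0.0070 over all probes. These sets were not tested as sets. Most members moved together from rat to rat, so these counts are not counts of independent observations.

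The intervals show how large a diet difference this fit left room for, and other settings gave other values. The 95% intervals of the members reached at lowest -0.29, which is 1.23-fold lower (Birc5), and at highest 0.32, which is 1.25-fold higher (Hmmr). Among replication genes the bounds were -0.28 (Prim1) and 0.23 (Tyms). The standard error of a difference was 0.065 for the median replication gene and 0.072 for the median mitosis gene, against 0.058 over all probes. In scraped mucosa, fewer dividing cells and less RNA of these genes per cell cannot be told apart.

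**Figure D1:**
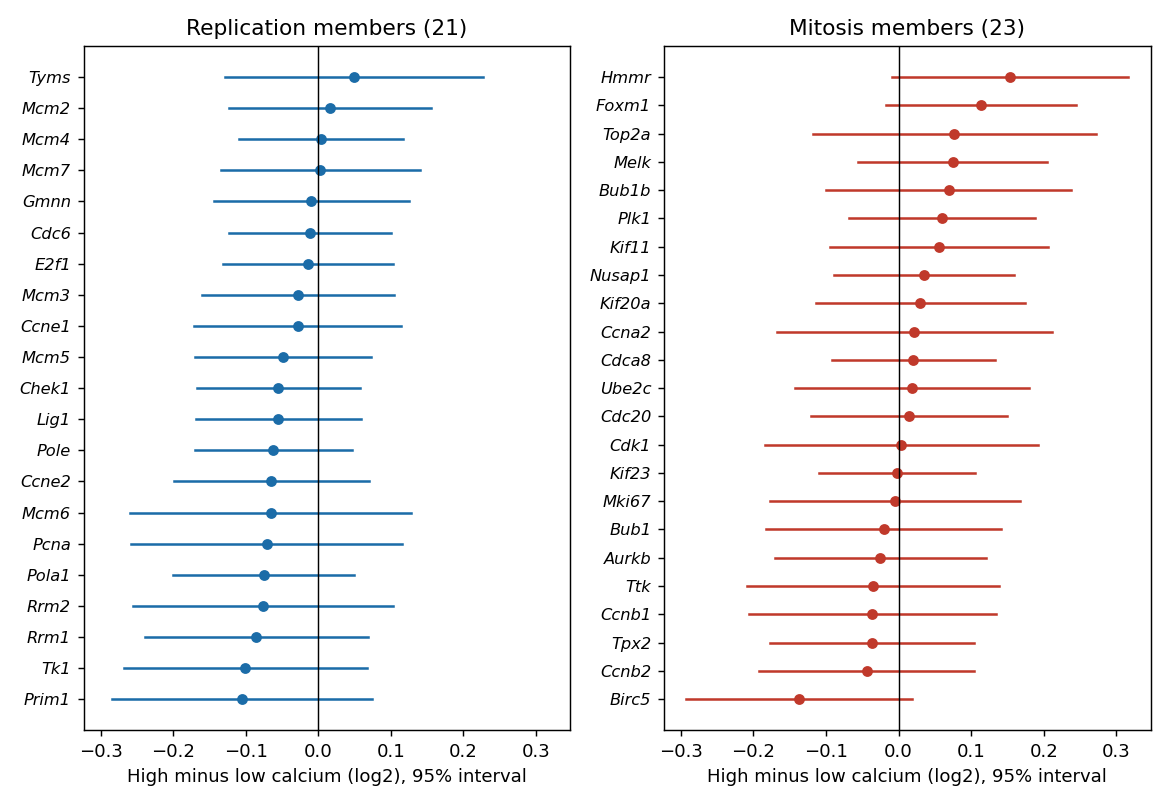
High minus low calcium difference of each tested member on the log2 scale (points) with its 95% interval from limma (lines), for 21 replication genes (left) and 23 mitosis genes (right), 8 against 9 rats. Every interval includes 0; Hmmr (0.15) and Birc5 (-0.14) lie farthest from it.

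Of the genes that license origins, 8 were tested, with differences from -0.066 (Mcm6) to 0.016 (Mcm2). Mcm2, a subunit of the replicative helicase, ran from -0.15 over a median of -0.037 to 0.25 in the high calcium rats and from -0.22 over -0.082 to 0.24 in the low calcium rats. The groups overlapped over nearly their whole range, and the difference was 0.016 ± 0.067 (SE; limma adjusted p = 0.966). The other helicase subunits differed by -0.028 (Mcm3), 0.0043 (Mcm4), -0.049 (Mcm5), -0.066 (Mcm6) and 0.0027 (Mcm7). Cdc6, which loads the helicase, differed by -0.011, with the spot of low calcium rat 11 missing. In the series matrix, which holds a value for that spot (13.3, where the other rats ran from 8.45 to 8.79), Cdc6 differed by -0.501, and by 0.0211 without rat 11. Gmnn, which blocks reloading, differed by -0.0096.

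All 5 polymerase and ligation genes had negative differences. Pcna, the sliding clamp, ran from -0.28 over a median of -0.066 to 0.14 with high calcium and from -0.39 over 0.078 to 0.32 with low calcium. The low calcium median was exceeded by 1 of 8 high calcium rats, yet the low calcium group held the highest and the lowest rat, and the difference was -0.071 ± 0.090 (SE; limma adjusted p = 0.850; interval -0.26 to 0.12). Prim1, the catalytic primase subunit, ran from -0.37 over -0.012 to 0.33 and from -0.099 over 0.015 to 0.38. Of the high calcium group 3 rats fell under the whole low calcium range of Prim1, and its difference of -0.11 ± 0.086 (adjusted p = 0.749) was the most negative among replication genes. Pola1, the catalytic subunit of polymerase alpha, ran from -0.42 over -0.050 to -0.027 with high calcium and from -0.25 over -0.036 to 0.086 with low calcium. Its medians were close, and 1 high calcium rat lay below all others (difference -0.075 ± 0.060; adjusted p = 0.738). Pole, of polymerase epsilon, ran from -0.17 over -0.037 to 0.14 and from -0.15 over 0.019 to 0.19, with wide overlap of the groups (difference -0.062 ± 0.052; adjusted p = 0.753). Lig1, the ligase that joins Okazaki fragments, differed by -0.056.

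The nucleotide synthesis genes had the most negative median of the replication roles, -0.081 over 4 genes. Tk1, thymidine kinase, ran from -0.30 over a median of -0.16 to 0.14 with high calcium and from -0.26 over 0.024 to 0.22 with low calcium. The low calcium median of Tk1 was exceeded by 2 of 8 high calcium rats, and the difference was -0.10 ± 0.080 (limma adjusted p = 0.739). Rrm1, the large subunit of ribonucleotide reductase, ran from -0.27 over -0.11 to 0.14 and from -0.28 over 0.013 to 0.20, with overlapping groups (difference -0.085 ± 0.074; adjusted p = 0.764). Rrm2, its small subunit, differed by -0.076 and Tyms, thymidylate synthase, by 0.050. The regulators of the entry into S phase had differences of -0.065 (Ccne2), -0.055 (Chek1, a checkpoint kinase), -0.029 (Ccne1) and -0.015 (E2f1, a transcription factor of replication genes, whose sign turned in 4 of 14 alternative settings).

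Among mitosis genes the marker Mki67, a protein that coats mitotic chromosomes, had close means in both diets. It ran from -0.096 over a median of 0.079 to 0.24 with high calcium and from -0.33 over 0.11 to 0.43 with low calcium. Both extremes were low calcium rats, and the difference was -0.0048 ± 0.083 (SE; limma adjusted p = 0.993), with an interval from 1.13-fold lower to 1.12-fold higher. Top2a, the topoisomerase that untangles chromosomes, ran from -0.19 over -0.046 to 0.30 and from -0.42 over -0.0060 to 0.22. Its groups overlapped, with a difference of 0.077 ± 0.093 (adjusted p = 0.845). Birc5 (survivin), of the chromosomal passenger complex, ran from -0.24 over 0.20 to 0.31 with high calcium and from 0.031 over 0.26 to 0.40 with low calcium. For Birc5 3 high calcium rats fell under the whole low calcium range and 1 of 8 exceeded its median, and the difference was -0.14 ± 0.075 (adjusted p = 0.584). Cdca8, also of that complex, differed by 0.020.

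Hmmr, which helps to assemble the spindle, had the largest positive difference of the members. It ran from -0.0043 over a median of 0.32 to 0.50 with high calcium and from -0.13 over 0.076 to 0.44 with low calcium. For Hmmr 7 of 8 high calcium rats exceeded the low calcium median and 2 the whole low calcium range, and the difference was 0.15 ± 0.078 (limma unadjusted p = 0.0622, adjusted p = 0.549). The difference of Hmmr was larger with a normexp offset of 0 (0.245, adjusted p = 0.604) and with the scanner's processed signals (0.305, adjusted p = 0.493). Hmmr was read by 1 dim probe (mean log2 intensity 7.2, against 13.1 for Cdk1, the brightest member). Its other probe was well above background on 1 array and was not tested. The other spindle genes differed by 0.056 (Kif11, the kinesin that separates the poles), 0.035 (Nusap1), 0.030 (Kif20a), -0.0022 (Kif23) and -0.037 (Tpx2).

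Foxm1, a transcription factor of mitosis genes, ran from -0.058 over a median of 0.089 to 0.21 with high calcium and from -0.21 over 0.042 to 0.18 with low calcium. Its groups overlapped, with 2 high calcium rats above every low calcium rat and a difference of 0.11 ± 0.063 (limma adjusted p = 0.587). Melk, a kinase of dividing cells, ran from 0.023 over 0.098 to 0.22 and from -0.20 over 0.071 to 0.28, and all high calcium rats lay inside the low calcium range (difference 0.074 ± 0.063; adjusted p = 0.754). The mitotic cyclins and their kinase differed by 0.022 (Ccna2), -0.036 (Ccnb1), -0.044 (Ccnb2) and 0.0037 (Cdk1). Plk1, a kinase of mitotic entry and exit, ran from -0.21 over -0.087 to -0.021 with high calcium and from -0.40 over -0.16 to 0.055 with low calcium. Here too the high calcium rats lay inside the low calcium range (difference 0.060 ± 0.062; adjusted p = 0.812). The other mitotic and checkpoint kinases differed by 0.069 (Bub1b), -0.020 (Bub1), -0.025 (Aurkb) and -0.035 (Ttk). Cdc20 and Ube2c, partners of the anaphase-promoting complex, differed by 0.015 and 0.019.

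**Figure D2:**
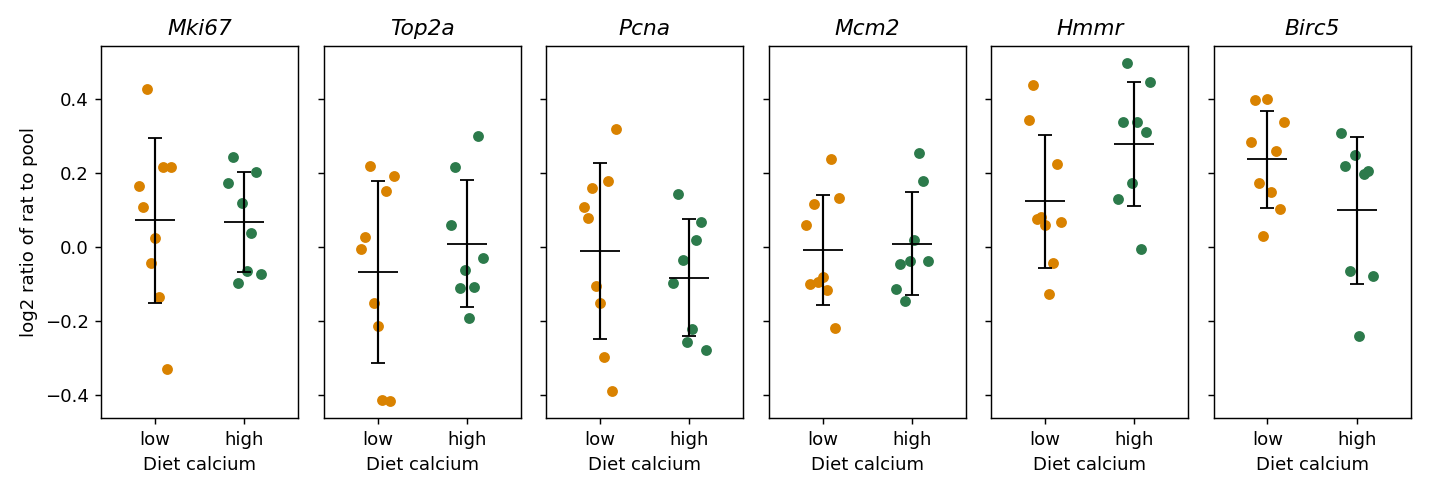
Log2 ratio to the pool of 6 members in each rat (points), with the mean (bar) and SD (whiskers) of 9 low and 8 high calcium rats. The groups overlap in every panel; for Mki67 both extreme rats, at -0.33 and 0.43, ate the low calcium diet.

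Both class means differed between the diets by less than the SD within either diet, and most members moved together from rat to rat. The mitosis mean, over 23 genes, was 0.033 ± 0.086 (SD, n = 8) with high calcium and 0.015 ± 0.16 (SD, n = 9) with low calcium, a difference of 0.018. Single rats spanned 0.43, or 1.35-fold, from -0.23 in low calcium rat 15 to 0.20 in low calcium rat 5. The replication mean, over 21 genes, was -0.024 ± 0.090 and 0.019 ± 0.13, a difference of -0.043, and single rats spanned 0.35, or 1.28-fold. Low calcium rat 16 had 43 of the 44 members above 0, which need not be the level of the pool, and low calcium rat 5 had 41. Low calcium rat 15 had 4 above 0 and low calcium rat 8 had 8. Among high calcium rats the count ran from 12 (rat 18) to 38 (rat 17), so both ends of the order were held by the low calcium diet.

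**Figure D3:**
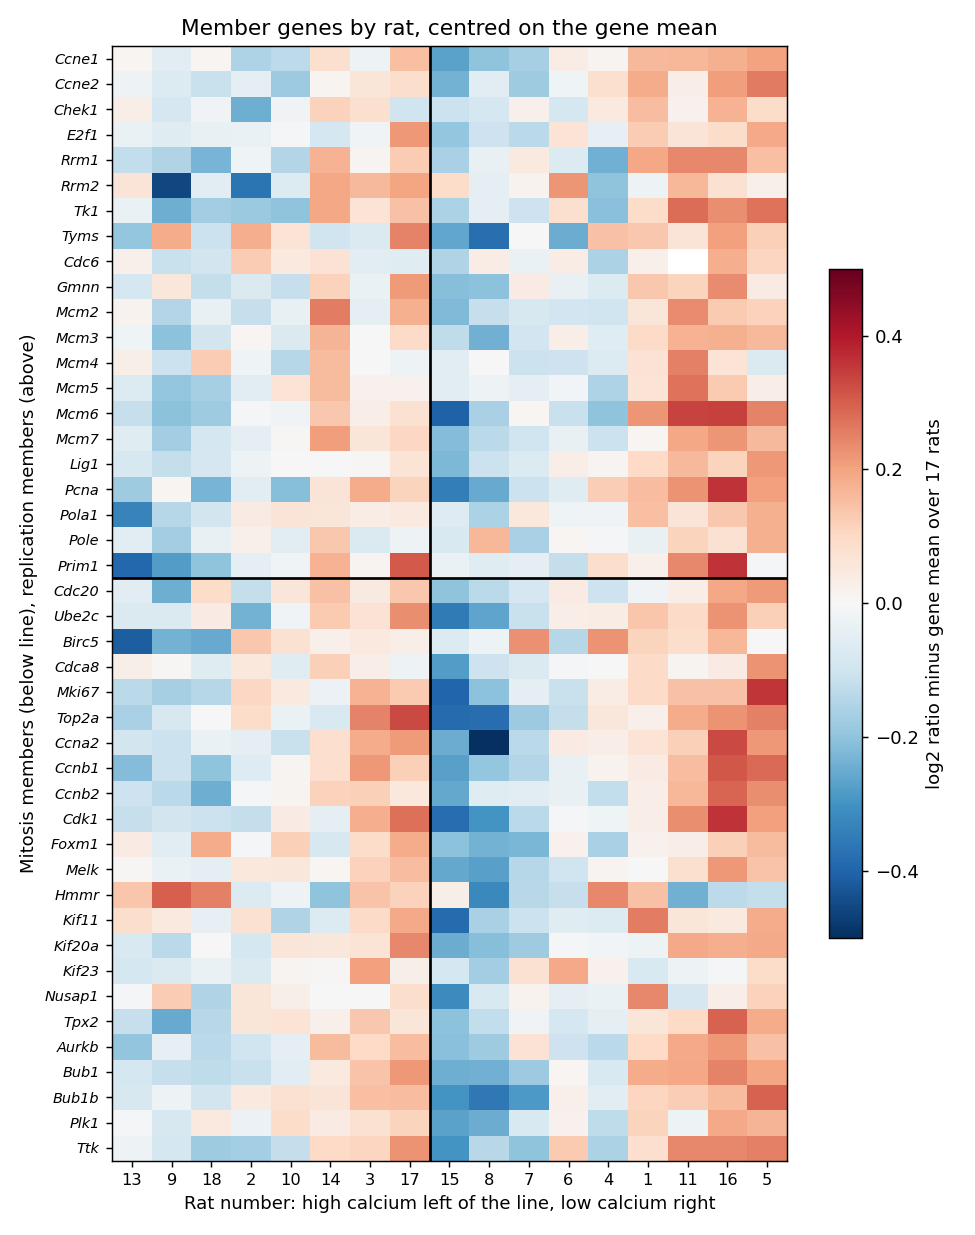
Each row is a member and each column a rat; colour is the log2 ratio minus the gene's mean over 17 rats, and rats are ordered within each diet by their mitosis mean. Columns such as low calcium rats 15 and 8 (low) and 16 and 5 (high) hold nearly 1 colour over both classes; Hmmr departs from this, and the white cell is a missing spot of Cdc6.

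The replication and mitosis means followed each other over the 17 rats with Pearson r = 0.88 and Spearman rho = 0.90, given as a description because both come from the same arrays. Within the diets r was 0.82 (8 high calcium rats) and 0.95 (9 low calcium rats), and r was 0.87 over the 15 rats without low calcium rats 11 and 16, which lay farthest from the median on the replication mean. Arrays came 4 to a slide, with 2 rats of each diet on slides 1 to 4 and low calcium rat 1 alone on slide 5, too few for a correlation within a slide. The diet difference within slides 1 to 4 was -0.083, -0.15, 0.098 and 0.0018 for the replication mean and -0.032, -0.11, 0.13 and 0.13 for the mitosis mean, so its sign was not the same on every slide. The median Cy5 signal of an array had r = -0.17 with the mitosis mean and 0.011 with the replication mean.

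**Figure D4:**
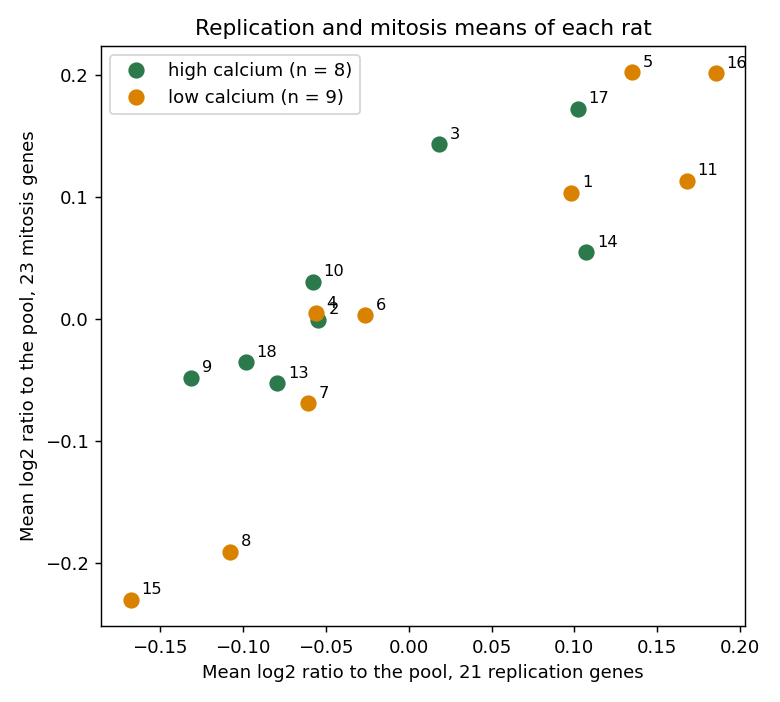
Mean log2 ratio of 21 replication genes (horizontal) against that of 23 mitosis genes (vertical), 1 point per rat with its number. High calcium rats lie inside the range of the low calcium rats on both axes, and r over all 17 is 0.88.

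Single genes showed the same relation for some pairs and less for others. Both genes of a pair were read on the same arrays, and 13.6% of all tested probes had an r over 0.5 with the mitosis mean. The p values below come from permuting rats and do not measure a relation particular to these genes. Over 17 rats Mki67 followed Top2a with r = 0.88 and rho = 0.90 (permutation p = 1e-05 for both, the smallest that 100000 resamples can give; 6e-05 adjusted over 6 pairs), and r was 0.86 without the 2 most distant rats. Mki67 followed Pcna with r = 0.80 and rho = 0.84 (permutation p = 0.00014 and 4e-05; adjusted 0.00028 and 0.00012; r = 0.75 without 2 rats). Top2a followed Pcna with r = 0.81 and rho = 0.80 (permutation p = 0.00011 and 0.00024; adjusted 0.00028 and 0.00048; r = 0.71 without 2 rats). Mcm2 was looser: its r was 0.60 with Mki67, 0.59 with Top2a and 0.64 with Pcna (permutation p = 0.010, 0.012 and 0.0071; adjusted 0.012, 0.012 and 0.011), with rho of 0.62, 0.56 and 0.58 (permutation p = 0.0097, 0.022 and 0.015; adjusted 0.015, 0.022 and 0.018). Without 2 rats these r fell to 0.47, 0.44 and 0.52. Within the high calcium rats they were 0.16, 0.15 and 0.31 and within the low calcium rats 0.84, 0.86 and 0.86. The other pairs also had a lower r with high than with low calcium: 0.82 and 0.94 for Mki67 with Top2a, 0.56 and 0.90 for Mki67 with Pcna, and 0.64 and 0.97 for Top2a with Pcna. This contrast was not tested.

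With the diet means removed, the median member of the mitosis list had r = 0.85 with the mitosis mean and the median replication gene r = 0.74, against -0.0053 over all 27083 probes. For a member of the class that made a mean, r was taken with the mean of the other members of that class. An r over 0.5 was reached by 20 of 23 mitosis and 17 of 21 replication genes and by 13.6% of all probes. Cdk1 (0.96), Bub1 (0.95) and Melk (0.95) lay closest to it, and of the replication genes Lig1 (0.94) and Pcna (0.90). Hmmr (-0.091), Birc5 (0.35) and Kif23 (0.48) followed it least among mitosis genes, and Mcm4 (0.25), Rrm2 (0.31) and Pole (0.34) among replication genes. Hmmr and Birc5 are also the members with the smallest p for diet. Mcm7 lay closest to the replication mean (0.97).

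**Figure D5:**
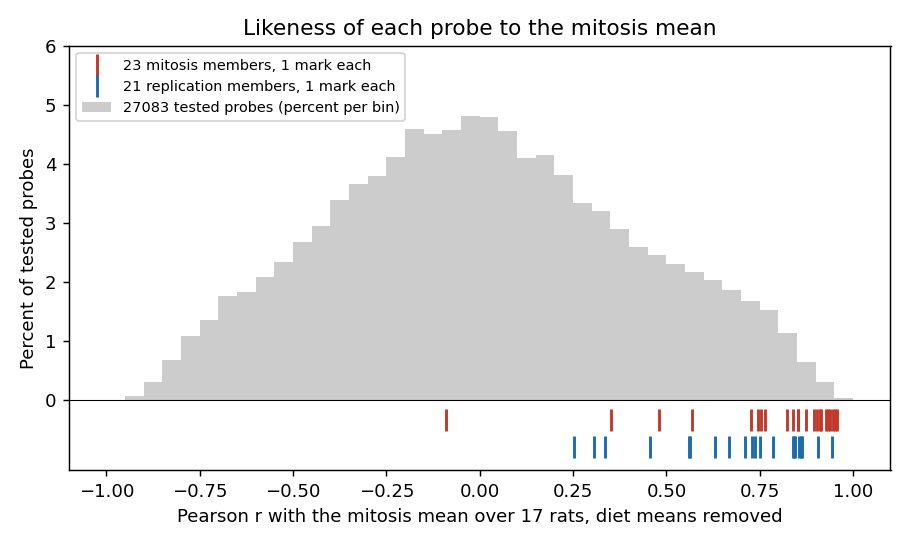
Distribution over all 27083 tested probes of Pearson r with the mitosis mean over 17 rats after removing diet means (grey bars, percent per bin of r), with 23 mitosis (red) and 21 replication (blue) members marked below. The probes centre near 0, most members lie above 0.5, and Hmmr is the mitosis gene at -0.091.

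Several probes were tested for 17 members, and the pair of brightest probes had a median r of 0.78 over the rats. The probes of 6 of these genes differed in the sign of the diet difference (Ccna2, Ttk, E2f1, Rrm1, Mcm2 and Mcm4). The dimmest Rrm1 probe had a difference of -0.13 ± 0.061 (SE), with a limma unadjusted p of 0.0444 and an adjusted p of 0.501. The probes of E2f1 (r = 0.034) and Mcm4 (r = -0.099) did not follow each other, so their values depend on the probe.

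Other genes of the cell cycle, from a list of 133 of which 104 were tested, showed 2 at an unadjusted p under 0.05 (1.92%) and 0 past the adjusted threshold. Over all tested probes the share under 0.05 was 9.6%, so that of this list was lower. One was Ccnd1, cyclin D1 of the phase before S, with a difference of 0.18 ± 0.055 (limma unadjusted p = 0.00416, adjusted p = 0.232). The other was Espl1, separase, with 0.14 ± 0.062 (limma unadjusted p = 0.0371, adjusted p = 0.478). Ccnd1 ran from -0.0074 over a median of 0.14 to 0.27 with high calcium and from -0.28 over -0.064 to 0.11 with low calcium, with some overlap. Of 35 genes of origin recognition and the fork, 24 had a negative difference (median -0.042), and of 40 further mitosis and cytokinesis genes 25 had a positive one (median 0.013). With diet means removed, the mean of the former list had r = 0.94 with the replication mean. That of the latter had r = 0.98 with the mitosis mean. Both were read on the same arrays as the members, so these counts are no separate evidence. Of 14 genes of G1 cyclins, kinases and the E2F-RB family and 15 inhibitors, 7 and 8 were positive.

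The named genes outside the members that lay closest to the mitosis mean were Ckap2 (r = 0.96), Nuf2 (0.96), Kpna2 (0.95), Mphosph1 (0.95), Kntc1 (0.95), Spbc24 (0.94), Ppp1r14b (0.94) and Prmt1 (0.94), over 17 rats with diet means removed. Closest to the replication mean were Kntc1 (0.95), Mthfd1 (0.95), Cdk4 (0.94), Trim37 (0.94), Vrk1 (0.94), Mphosph1 (0.94) and Rpl10a (0.93). Of these, Ckap2, Nuf2, Kpna2 and Cdk4 were matched to the list of other cell cycle genes. Spc24 also stood on that list, but its older name on the array, Spbc24, was not matched to it.

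Markers of cell types gave the setting of the members' variation between rats, with r over 17 rats after removing diet means. The mean of the crypt base markers (11 of 12 tested) had r = 0.74 with the mitosis mean and 0.53 with the replication mean, and ran from -0.19 to 0.14 in high and from -0.25 to 0.17 in low calcium rats. The mean of the differentiated colonocyte markers (11 of 12 tested) had r = -0.55 and -0.55, and ran from -0.49 to 0.29 and from -0.43 to 0.22. That of the colon epithelium markers had r = -0.55 and -0.48, and ran from -0.075 to 0.15 and from -0.15 to 0.16. The part of these cells in the members' values was not tested.

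Beside the members, several markers of other cell types had larger diet differences. All 10 fibroblast markers had a lower level with high calcium at an unadjusted p under 0.05 and 0 passed the adjusted threshold (limma adjusted p at least 0.0855). Of all tested probes 5.16% were lower and 4.45% higher at that unadjusted threshold. The marker lists were chosen with earlier results of these data known, so their counts are no independent support. Pdgfrb differed by -0.46 ± 0.097, Lum by -0.69 ± 0.15, Col1a1 by -0.52 ± 0.11, Dcn by -1.02 ± 0.22, Pdgfra by -0.48 ± 0.11 and Bgn by -0.50 ± 0.12. Of 11 macrophage markers 10 had a negative difference and 4 an unadjusted p under 0.05 (median -0.13), with Trem2 the most negative (-0.95 ± 0.21) and Mrc1 positive (0.096). Of 7 smooth muscle markers 5 had a negative difference and 2 an unadjusted p under 0.05 (median -0.17), with Tpm2 the most negative (-0.39 ± 0.091) and Cnn1 (0.055) and Actg2 (0.050) positive. The fibroblast mean ran from -0.84 to 0.22 with high and from -0.12 to 0.53 with low calcium, and with diet means removed it had r = 0.19 with the mitosis mean and 0.14 with the replication mean. Macrophage (11 of 12 tested), smooth muscle (7 of 10), T cell (10 of 12) and B cell (8 of 12) means had r of -0.35, 0.12, -0.061 and 0.34 with the mitosis mean. Of 10 T cell markers 9 had a negative diet difference (median -0.075), and 2 of these had a limma unadjusted p under 0.05. Of 11 differentiated colonocyte markers 8 had a positive diet difference (median 0.16), while the 2 with a limma unadjusted p under 0.05 were negative.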

How the data were processed

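The deposited scanner files of 17 arrays give spot intensities and a log10 ratio of the processed Cy5 and Cy3 signals, both made with Agilent Feature Extraction (version 9.5 in the submitters' processing notes, with 9.5.1.1 written in the headers of the files), as deposited. How the log2 values of the deposited series matrix were made is not given in the sources used, so they and the log10 ratios were alternatives only. Rats were numbered separately in the titles and taken as separate animals.

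Background was corrected by normexp (offset 50) and each array normalised by loess in limma 3.58.1 (R 4.3.3), with control and flagged spots left out. A first run fitted normexp on all spots, and its results were known when a fault was found. On low calcium rats 8, 11 and 16 that fit gave a median Cy5 signal of 322, 1307 and 691, against 158, 161 and 159 without a few spots whose local background lay far above the spot, and flatter ratios. Spots over 30 units below their local background, at most 17 on an array and present on 6 arrays, were then left out of the fit and set to missing. This limit was chosen after seeing the data, and the fit on all spots is kept as an alternative.

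Probes had to be well above background in the Cy5 channel of at least 8 arrays, and the brightest probe stood for a gene. Groups were compared by limma, two-sided, at a threshold of 0.05 after Benjamini-Hochberg adjustment across the 27083 probes. The fit was tested on simulated data with independent noise for each probe and added changes larger than any member's difference. That test therefore does not cover changes of the members' size or genes that move together. A change shared by most genes would be removed by the normalisation, and the number of arrays limits the precision.

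The members and all gene lists were chosen with earlier results of these data known. The rule for named genes gives each tested member's difference; values over rats for Mki67, Top2a, Pcna, Mcm2 and the 5 genes of each class with the smallest p; other cell cycle genes and markers at an unadjusted p under 0.05, at most 8 of each; and the 8 genes most like each mean, of which 1 is not reported here. Alternatives covered the background, normalisation, filter, variance model, slide, probe rule and each rat left out.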

Additional observations from a re-analysis of the deposited data

Results flagged for a closer look

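In 88 groups of one member in one diet and 4 of a replication or mitosis mean in one diet, 3 rats stood apart from the rest of their group by Dixon's criterion, which chance meets in about 1 of 20 groups. Kif23 in high calcium rat 3 was 0.417, with the next rat at 0.242. E2f1 in high calcium rat 17 was 0.295, with the next at 0.067. Mcm4 in low calcium rat 11 was 0.278, with the next at 0.10. The brightest probes of E2f1 and Mcm4 did not follow their other probes, and the part of this in both values was not tested.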

How the results depend on the processing

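No member passed an adjusted p of 0.05 in any of 14 alternative settings or with any of 17 rats left out (limma). Probes passing over the whole array numbered 2 with the scanner's processed signals and 86 with array weights, and from 0 to 273 with a rat left out (273 without high calcium rat 3, 76 without low calcium rat 16). Members at an unadjusted p under 0.05 numbered 1 (Hmmr) with median centring, with the series matrix and with the slide as a block, and from 0 to 2 with a rat left out (Hmmr without rats 1, 2, 4 or 14, Birc5 without rats 2 or 6, Foxm1 without rats 5 or 16). From 14 to 19 of 21 replication genes were negative over settings. The replication median stayed negative, from -0.0708 to -0.0288 over settings and from -0.0716 to -0.025 over rats left out; the mitosis median ran from -0.0165 to 0.0284 and from -0.0133 to 0.0419, turning sign in 2 settings and for 3 rats. The relation of both means held r of 0.778 to 0.927 over settings. Differences farthest from the reported ones were Cdc6 with the series matrix (-0.501; 0.0211 without rat 11), Hmmr with a normexp offset of 0 (0.245) and with the scanner's signals (0.305), and Mcm4 with the latter. Of 615 member differences under alternatives 47 turned sign, none past the threshold. Without background subtraction the sign turned for Mcm7 (-0.00308), Cdc6 (0.00336) and Mcm4 (-0.00366). With normexp on all spots the sign turned for Cdk1 (-0.00557), Cdc20 (-0.0111), Ccna2 (-0.0114) and Cdc6 (0.00746). With the scanner's processed signals the sign turned for Cdk1 (-0.0122), Kif23 (0.00244), Gmnn (0.00039), Mki67 (0.0115), Mcm7 (-0.0118), Cdc6 (0.0175), Mcm5 (0.00769) and Mcm4 (-0.0946). With median centring the sign turned for Mcm7 (-0.00804). With loess and scaling the sign turned for Cdk1 (-0.00474) and Mcm7 (-0.000333). With Cy5 alone the sign turned for Ccnb1 (0.00522), Kif23 (0.0397), Mcm3 (0.0047), E2f1 (0.0283), Mcm7 (-0.000779) and Cdc6 (0.0379). With the series matrix the sign turned for Bub1 (0.00123), Kif23 (0.0106), Mki67 (0.0101), E2f1 (0.00557) and Mcm5 (0.0115). With array weights the sign turned for Cdk1 (-0.0372), Cdc20 (-0.0102), Kif20a (-0.0036), Ccna2 (-0.0212), Ube2c (-0.0321), Mcm7 (-0.017), Mcm2 (-0.00958), Cdc6 (0.000663) and Mcm4 (-0.015). With the slide as a block the sign turned for Bub1 (0.00145), Gmnn (0.00684), Mki67 (0.0068), E2f1 (0.000476) and Cdc6 (0.00522). With the mean of a gene's probes the sign turned for Ttk (0.00305), Ccna2 (-0.0225), E2f1 (0.0133) and Mcm4 (-0.0243). No paired analysis was possible because each replicate number belongs to 1 rat. The filter on all arrays dropped 1 member, and the mean of a gene's probes gives no count of probes. Normexp on all spots, the relation under each setting and Cdc6 without rat 11 were added after seeing the data. On every array 43 of the 44 members were well above background, yet some of their differences depended on the setting. With the scanner's processed signals Pola1 differed by -0.155 and Kif11 by 0.11, against -0.0754 and 0.056 in the main fit.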
